A study of Mus musculus with 2 samples.

Results

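The 5 microRNA genes Mir764, Mir1912, Mir1264, Mir1298 and Mir448 lie in introns of Htr2c, the gene of a serotonin receptor on chromosome X of the mouse. They were taken by gene identifier out of 2202 counted genes, and only reads in the direction of each gene are used. The series holds 2 microRNA-seq libraries of 1 group: total RNA from a layer of the hippocampus of male B6CASTF1/J mice aged 36 days, labelled as biological replicates 1 and 2, with no treatment and no second condition. B6CASTF1/J is the first-generation cross of C57BL/6J and CAST/EiJ, and by the naming convention the strain of the mother comes first, so that the single X chromosome of a male comes from C57BL/6J. Both tissue samples carry the same donor record, and p-values between the libraries measure only the spread of counting in these 2 samples.

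Intronic microRNAs are usually cut out of the transcript of their host gene, so that hairpins of 1 host can share a promoter, while each hairpin is processed on its own. Htr2c encodes a G protein-coupled receptor for serotonin, which is present in several forebrain regions including the hippocampus and is especially abundant in the epithelium of the choroid plexus, a tissue that lies against the hippocampus in the lateral ventricle. A mature microRNA pairs with messenger RNAs mainly through its seed, bases 2 to 8 from its 5′ end.

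The mature sequences show how little the 5 genes resemble each other. RefSeq (GRCm38.p6) lists 8 arms for them, printed 5′ to 3′ with the seed in capitals, in the order in which the genes lie along Htr2c. Both arms are listed for 3 genes and 1 arm for Mir1912 and Mir1264.
miR-764-5p: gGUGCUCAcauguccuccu
miR-764-3p: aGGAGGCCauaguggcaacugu
miR-1912-3p: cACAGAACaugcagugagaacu
miR-1264-3p: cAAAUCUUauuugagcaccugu
miR-1298-5p: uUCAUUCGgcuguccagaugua
miR-1298-3p: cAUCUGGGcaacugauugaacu
miR-448-5p: gAACAUCCugcauagugcugcc
miR-448-3p: uUGCAUAUguaggaugucccau

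No 2 of the 8 arms have a seed in common. GC content ran from 36.4% in miR-1264-3p to 57.9% in miR-764-5p. None of the 8 arms occurs in another annotated microRNA hairpin or in a spliced GENCODE M21 transcript, on either strand. The longest stretch that a member hairpin shares with any other hairpin was 13 bases, for Mir764 and Mir448, and 12 bases for the other members. Multimapping reads, 40.3% and 46.5% of the 2 libraries, are in no gene's count. No near-identical copy of a member was found among the annotated microRNA genes, and unannotated sequence was not analysed here.

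Mir1298 was the highest of the 5 genes, and its hairpin is printed here because the results turn on it. It spans chrX:147064905-147065002 on the plus strand (mm10), and the capitals mark its 5p and 3p arms, which cannot be told apart in counts per gene.
Mir1298 hairpin: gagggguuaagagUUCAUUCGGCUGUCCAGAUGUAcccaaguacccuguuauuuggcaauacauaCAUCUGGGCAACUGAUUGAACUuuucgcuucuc

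All 5 genes lie on the strand of Htr2c (ENSMUSG00000041380.13, chrX:146962513-147197277) and in no exon of its 7 annotated transcripts. Mir764 (ENSMUSG00000076458.1, chrX:147002259-147002366), Mir1912 (ENSMUSG00000093039.1, chrX:147009441-147009527), Mir1264 (ENSMUSG00000093122.1, chrX:147010601-147010686) and Mir1298 (ENSMUSG00000080331.1) share the long intron that precedes the first coding exon. That intron spans 90779 bases in its longest form, and the start codon lies downstream of it at position 147072453. Mir448 (ENSMUSG00000065450.1, chrX:147158210-147158321) lies in a later intron of 93522 bases, after the start codon. The members are not evenly spaced: 1073 bases separate Mir1912 from Mir1264, 54218 separate Mir1264 from Mir1298, and 93207 separate Mir1298 from Mir448.

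The own-strand totals were 4404040 counts in replicate 1 and 5279877 in replicate 2, so that 3 counts, the most that a count of 0 allows, stand for 0.681 and 0.568 CPM (counts per 1000000). Intervals and this floor cover counting error only, since PCR copies of 1 molecule are counted separately where no molecular identifier marks them. The labelled tissue was checked against neuronal microRNAs, which cannot tell the hippocampus from other brain tissue. Of a list of 13 neuronal genes 10 had 10 or more counts in both libraries, as did 18.7% of all 2202 genes. The list was led by the activity-dependent Mir132 at 20543 ± 4655 CPM (SD, n = 2). The 3 genes of the neuronal miR-124 stood at 0 to 11 counts, and each shares 20 or more bases with the other two, so their reads may be among those that match several places.

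Mir1298 had 232 counts in replicate 1 and 1606 in replicate 2. This is 52.7 CPM (exact Poisson 95% interval 46.1 to 59.9) and 304 CPM (289 to 319), or 178 ± 178 CPM (SD, n = 2). The SD is as large as the mean, since the 2 libraries stand far apart. Mir1298 ranked 220th of all genes in replicate 1 and 150th in replicate 2.

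Mir1264 had 89 and 197 counts, or 20.2 CPM (16.2 to 24.9) and 37.3 CPM (32.3 to 42.9), a mean of 28.8 ± 12.1 CPM. Mir448, whose product is known from work on fat cells, had 56 and 123 counts, or 12.7 CPM (9.61 to 16.5) and 23.3 CPM (19.4 to 27.8), a mean of 18.01 ± 7.48 CPM. For both genes the intervals of the libraries did not overlap, and replicate 2 was the higher. The share of all genes without overlap was not counted. In the exact binomial test described below, 55.8% of the 504 genes tested differed between the libraries, and 32.5% were higher in replicate 2. Mir764 had 32 and 36 counts, or 7.27 CPM (4.97 to 10.3) and 6.82 CPM (4.78 to 9.44), a mean of 7.04 ± 0.317 CPM. Its libraries overlapped almost entirely.

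Mir1912 was close to the floor, with 4 counts in replicate 1 and 7 in replicate 2. Its levels were 0.908 CPM (0.247 to 2.33) and 1.33 CPM (0.533 to 2.73), and the floor of each library lay inside its interval. It was the only member with fewer than 10 counts in both libraries. The other 4 of the 5 had 10 or more in both, as did 18.7% of all 2202 genes and 26.8% of the 142 genes on chromosome X. No read of either library fell on the opposite strand of any member, and the count for either strand equalled the own-strand count for all 5.

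**Figure D1:**
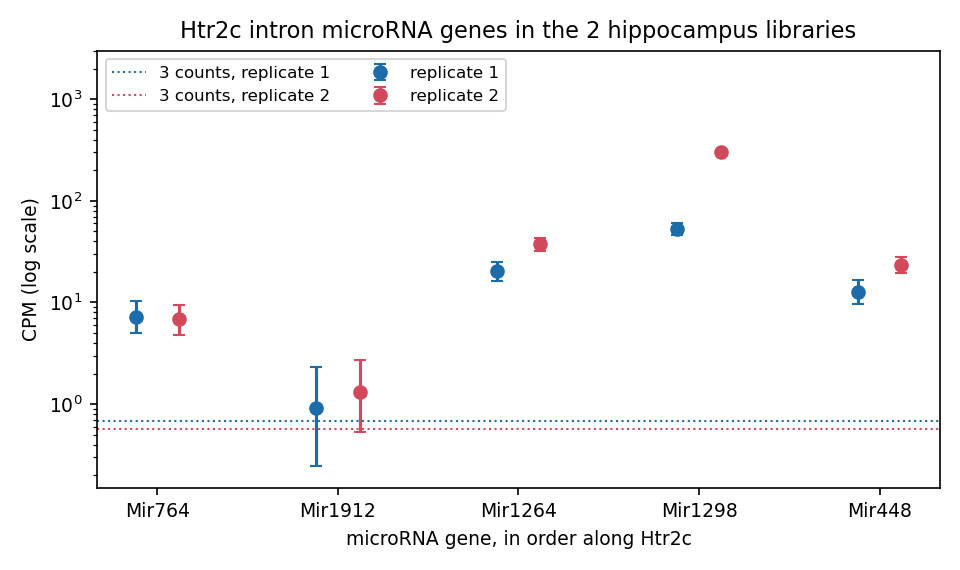
Level of each Htr2c intron microRNA gene in CPM on a log axis, by library, with exact Poisson 95% intervals as bars and the level of 3 counts as dotted lines. Mir1298 stands at 52.7 CPM in replicate 1 and 304 CPM in replicate 2, while the 2 libraries overlap at Mir764 and Mir1912.

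The order of the levels was Mir1298, Mir1264, Mir448, Mir764 and Mir1912 in both libraries. Dividing the mean by the length of the hairpin kept this order, from 182 CPM per 100 bases for Mir1298 through 33.4, 16.1 and 6.52 to 1.28 for Mir1912. Ligation and amplification can favour some sequences, so ratios between genes are ratios of counts. Every neighbouring pair in this order was separated beyond counting error, as the lower bound of its ratio was above 1 in each library. The closest was Mir1264 over Mir448, with a ratio of 1.59 (exact binomial 95% interval 1.13 to 2.26) in replicate 1 and 1.60 (1.27 to 2.02) in replicate 2. Mir764 exceeded Mir1912 by 8.00 times (2.84 to 31.1) and 5.14 times (2.26 to 13.7).

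Mir1264 and Mir448, which lie in different introns, kept their ratio between the libraries, and Mir1298 did not keep its ratio to either. The intervals of these ratios cover counting error only, and in the test described below 55.8% of the 504 genes tested differed between the libraries. How often other pairs of genes kept or changed their ratio was not analysed. Mir1298 exceeded Mir1264, its neighbour in the same intron, by 2.61 times (2.03 to 3.37) in replicate 1 and by 8.15 times (7.03 to 9.50) in replicate 2. It exceeded Mir448 by 4.14 times (3.08 to 5.65) and 13.1 times (10.9 to 15.8). Over Mir764 the ratios were 7.25 (5.00 to 10.8) and 44.6 (32.1 to 63.9). None of these 3 pairs of intervals overlapped, and a ratio within a library does not depend on how the libraries are scaled. Mir1264 over Mir764 gave 2.78 (1.84 to 4.31) and 5.47 (3.82 to 8.04), which overlap. Of the counts of all 5 members together, 413 in replicate 1 and 1969 in replicate 2, Mir1298 held 56.2% (exact binomial 95% interval 51.2 to 61.0) and 81.6% (79.8 to 83.3). The other 4 members summed to 41.1 and 68.8 CPM.

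**Figure D2:**
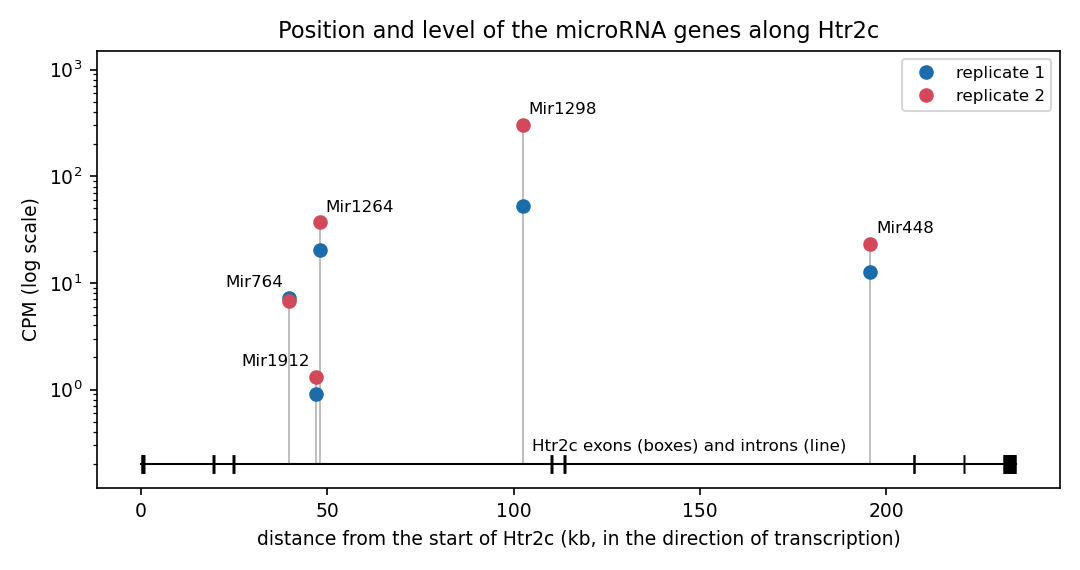
Htr2c drawn from its first base in kb in the direction of transcription, with the exons of its coding transcripts as boxes on the baseline (drawn at a minimum width), and the level of each microRNA gene in CPM on a log axis in each library. The highest gene, Mir1298, and the lowest, Mir1912, lie in the same intron, and Mir1264 lies 1073 bases from Mir1912.

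Besides the 5 members, 2 annotated microRNA genes lie inside Htr2c on the same strand, which makes 7 in all. They are named here after their values were seen. Gm22650, the gene of miR-3552, lies upstream of Mir764 at chrX:146999405-146999509 and had 15 counts in replicate 1 and 6 in replicate 2. Its log2 ratio of replicate 2 over replicate 1 was -1.06, opposite in sign to those of Mir1264, Mir1298 and Mir448, with an adjusted p of 0.0467 in the exact binomial test described next. Gm24627, the gene of miR-1911, lies between Mir1298 and Mir448 and had 0 counts in both libraries.

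Mir1298, Mir1264 and Mir448 were higher in replicate 2, and Mir764 and Mir1912 did not pass the test. The libraries were compared by a two-sided exact conditional binomial test across the 504 genes with 10 or more counts in total, with TMM scaling and Benjamini-Hochberg adjustment at 0.05. Log2 ratios have 1 CPM added to each library. Of the genes tested, 32.5% were higher and 23.2% lower in replicate 2. The 3 of 5 members thus stand beside a background in which 55.8% of the genes differed between these libraries.

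Mir1298 was higher in replicate 2 by 5.71 times (exact binomial 95% interval 4.97 to 6.58), a log2 ratio of 2.49 with an adjusted p of 8.57e-198. Only 9 of the 504 genes had a higher ratio, and none of these was among the 44 tested genes on chromosome X. Mir1264 was higher by 1.82 times (1.41 to 2.37), a log2 ratio of 0.84 with an adjusted p of 3.46e-06 in the exact test. Mir448 was higher by 1.81 times (1.31 to 2.53), a log2 ratio of 0.81 with an adjusted p of 0.000374. The intervals of Mir1264 and Mir448 overlapped each other almost entirely and lay below that of Mir1298.

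For Mir764 the ratio was 0.927 (0.560 to 1.54), a log2 ratio of -0.10 with an adjusted p of 0.881. For Mir1912 it was 1.44 (0.367 to 6.72), a log2 ratio of 0.28 with an adjusted p of 0.844. At 11 counts in total a difference of the size of that of Mir1298 lay inside the interval of Mir1912, and was not excluded for it. The interval of Mir764 did not reach the ratio of Mir1298, but it held part of the intervals of Mir1264 and Mir448.

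The test counts reads, not animals, and edgeR put the coefficient of variation between these libraries at 0.425 over all genes. With a coefficient of 0.3 built into the test, where 2.58% of the genes were higher in replicate 2, the adjusted p was 0.0156 for Mir1298, 0.831 for Mir1264 and 0.861 for Mir448. With 0.425 built in, a setting chosen after the data were seen, the adjusted p of Mir1298 was 0.594, and its unadjusted p was 0.0165.

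Genes of similar level give the spread around each member. Among the 124 other genes tested within 4-fold of the mean level of Mir1298, the 10th to 90th percentile of the log2 ratio ran from -0.59 to 1.12, and 4 genes stood above Mir1298. Mir1264 and Mir448 lay inside such ranges: 24 of 141 genes near the level of Mir1264 and 24 of 149 near that of Mir448 had a higher ratio. The ratio of Mir764 was exceeded by 106 of 186 genes.

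**Figure D3:**
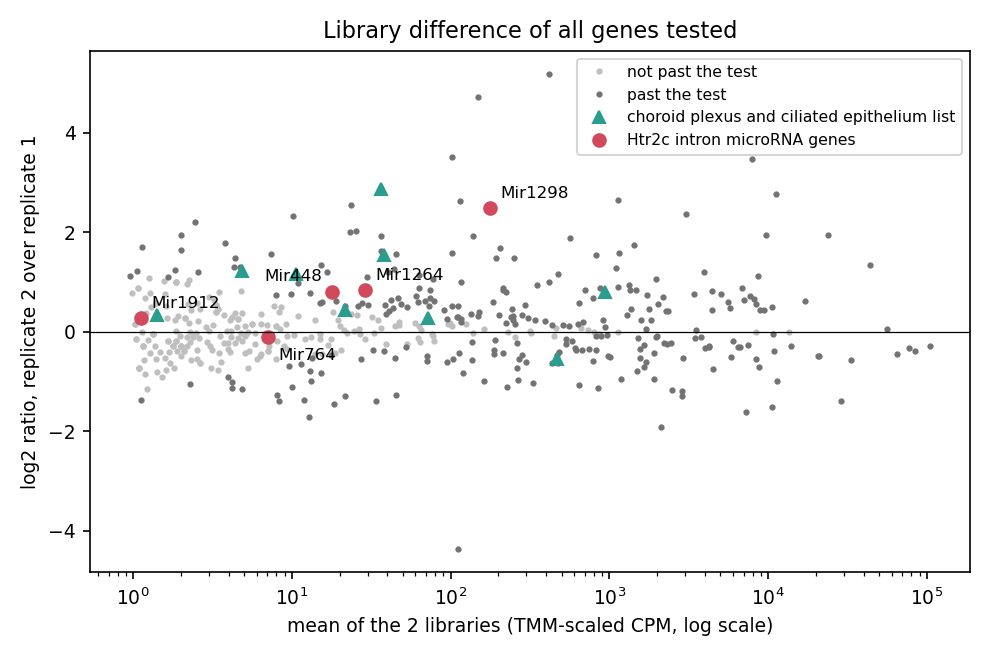
Log2 ratio of replicate 2 over replicate 1 against the mean TMM-scaled CPM (log axis) for the 504 genes tested, with the Htr2c intron genes as red circles and the choroid plexus and ciliated epithelium list as green triangles. Mir1298, at a log2 ratio of 2.49, stands above most genes of its level, while Mir1264 (0.84) and Mir448 (0.81) lie inside the cloud.

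Markers of the choroid plexus, where the host gene is abundant, were present in both libraries and differed between them as well. Of the 12 genes of the choroid plexus and ciliated epithelium list 8 had 10 or more counts in both libraries, as did 18.7% of all 2202 genes. Mir449b had 0 in both, and Mir449c and Mir141 had 0 to 4. The list summed to 1351 CPM in replicate 1 and 1838 CPM in replicate 2. Of its 9 genes tested 7 were higher, Mir34c was lower and Mir211 did not pass, while 32.5% of all genes tested were higher. The median log2 ratio was 0.80 against 0.05 over all genes tested. These calls cover counting error only, and the list was not counted again with a coefficient of variation built in. Like the other lists, it was chosen with earlier results of these data known. DESeq2 size factors gave 5 higher genes, and a minimum of 1 count gave 6. With a minimum of 100 counts, which moves every log2 ratio by -0.13 and tests fewer genes, 4 were higher. Mir204, the highest of the list and abundant in choroid plexus epithelium, had 683 and 1206 CPM (log2 ratio 0.80), close in ratio to Mir1264 and Mir448. Such ratios also occurred outside the list, as in the neuronal Mir128-2 (log2 ratio 0.84), whose count is uncertain because it shares 20 bases with Mir128-1. Mir200b, an epithelial microRNA named after its value was seen, had 35 and 345 counts and a log2 ratio of 2.87, above that of Mir1298. Mir34c, the second highest, was lower in replicate 2, with 550 and 380 CPM, and Mir449a, typical of ciliated cells, had 64.0 and 79.2 CPM. The part of such cells in the counts of the Htr2c intron genes was not tested, and in bulk tissue fewer cells of a type cannot be told apart from less RNA per cell.

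Neuronal markers gave counts that depend on genes with near-identical copies. Of 11 neuronal genes tested 7 were higher in replicate 2 and Mir132 and Mir134 were lower, while 32.5% of all genes tested were higher. The median log2 ratio of the 11 was 0.44, and the list summed to 43488 CPM in replicate 1 and 51858 CPM in replicate 2. Mir137 had 5765 and 9634 CPM (log2 ratio 0.72). Of the 7 higher genes 6, Mir128-1 (log2 ratio 1.12) among them, share 20 bases with another hairpin, so their counts are uncertain. The 4 tested genes that share none, a split made after the data were seen, were 1 higher (Mir137), 2 lower (Mir132 and Mir134) and 1 that did not pass (Mir212). Their median was -0.20, and it rests on these 4 genes only. Of the 3 oligodendrocyte genes tested Mir219a-2, which shares 20 bases with 2 other hairpins, was higher by a log2 ratio of 0.05 and Mir338 was lower (log2 ratio -0.22), and the list summed to 5819 and 5662 CPM. The fourth, Mir219b, had 0 and 1 count. The vessel wall list summed to 16250 and 43835 CPM, most of it from the endothelial Mir126a (log2 ratio 1.95), with Mir126b at 0 in both libraries. Of its 3 genes tested 2 were higher and 1 lower, while 32.5% of all genes tested were higher. Mir145a was the other higher gene (log2 ratio 0.18). Mir143, the second highest of the list, was lower (log2 ratio -0.17), with 6311 and 5658 CPM. These marker differences were not tested as a source of the differences of the Htr2c intron genes.

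MicroRNA genes in introns of other neuronal hosts gave a mixed picture beside the Htr2c genes. Of 13 such genes 9 were higher in replicate 2, 3 were lower (Mir139, Mir383 and Mir338) and Mir488 did not pass, with a median log2 ratio of 0.35. The lists overlap, as Mir128-1 and Mir128-2 are also in the neuronal list and Mir338 is also in the oligodendrocyte list. Over all genes tested 32.5% were higher, with a median of 0.05. As 5 of the 9 share 20 bases with another hairpin, their counts are uncertain, and without them 4 of 8 were higher, with a median of 0.18. The highest of them were Mir139 in Pde2a at 84408 ± 15431 CPM, Mir128-1 in R3hdm1 and Mir149 in Gpc1 at 5611 ± 1671 CPM. Mir1298, the highest Htr2c intron gene, stood below 12 of the 13 in replicate 1 and below 9 in replicate 2. The Clcn5 introns hold another microRNA cluster of chromosome X, of which 5 of 7 listed genes had an entry under their symbol. In it Mir188 and Mir362 were higher and Mir500, Mir501 and Mir532 lower, with a median log2 ratio of -0.07. Its sums were 1955 and 1780 CPM, and those of the Htr2c intron genes 93.8 and 373 CPM. Within Clcn5 the log2 ratios ran from -0.43 to 0.58, and within Htr2c those of the 5 members from -0.10 to 2.49.

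**Figure D4:**
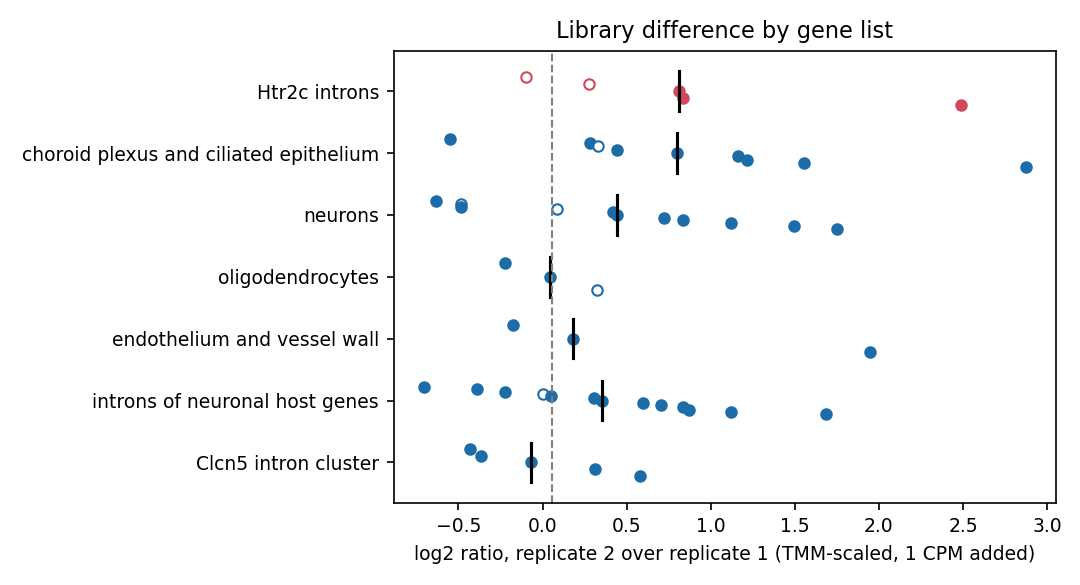
Log2 ratio of replicate 2 over replicate 1 for the tested genes of each list (1 point a gene, filled where past the exact binomial test and open where not), with the median of each list as a bar and the median of all 504 genes tested, 0.05, as a dashed line. The Htr2c intron genes span from -0.10 to 2.49, and their median, 0.81, is the ratio of 1 gene, Mir448. The other medians lie at 0.80 (choroid plexus), 0.44 (neurons), 0.05 (oligodendrocytes), 0.18 (vessel wall), 0.35 (introns of neuronal hosts) and -0.07 (Clcn5).

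Among the 38 genes of chromosome X with 10 or more counts in both libraries, Mir1298 ranked 22nd in replicate 1 and 14th in replicate 2. The ranks in the same order were 25th and 23rd for Mir1264, 27th and 26th for Mir448, and 30th and 32nd for Mir764, so that Mir1298 moved most. Of the 44 genes of chromosome X that were tested, 10 were higher and 15 lower in replicate 2, with a median log2 ratio of -0.05. The 3 members that were higher are part of those 10.

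Genes closest in level to each member, by the summed difference in log2(CPM + 1) over both libraries, were led by Mir218-1, a microRNA of the Slit2 intron, for Mir1264. It had 88 and 200 counts against 89 and 197, though it shares 20 bases with Mir218-2 and its count is uncertain. The next nearest to Mir1264 was Mir6236, with 96 and 176 counts. For Mir1298 they were Mir16-2, with 247 and 1162 counts, which shares 20 bases with Mir16-1, and Mir153, with 420 and 1650 counts. For Mir448 they were Mir3061 (64 and 123 counts) and Mir92-2 (53 and 101), and for Mir764 Gm23935 (35 and 34) and Mir3085 (29 and 39). Mir92-2 shares 20 bases with Mir92-1, and Gm23935 with 5 other hairpins, so their counts are uncertain too. The measure covers 2 libraries of 1 tissue and describes level only.

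Few listed microRNAs have a seed in common with a member. Only miR-764-3p shared bases 2 to 8 with another listed mature microRNA, miR-7062-5p, whose gene Mir7062 had 10 and 5 counts. With bases 2 to 7 alone, miR-448-3p matched miR-153-3p, a brain microRNA encoded in an intron of Ptprn2. The 2 sequences are set side by side with those bases in capitals.
miR-153-3p: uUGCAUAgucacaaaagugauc
miR-448-3p: uUGCAUAuguaggaugucccau

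In the first 8 bases, counted from 1 at the 5′ end, they differ by U8G (miR-448-3p has the first base named). Mir153 stood at 95.4 and 313 CPM, against 12.7 and 23.3 CPM for Mir448. Its log2 ratio of 1.68 was above that of Mir448. The other match of miR-448-3p, miR-6335, had a gene with 0 counts in both libraries. Over the same bases miR-448-5p matched miR-499-3p, and Mir499, a gene known from muscle, had 33 and 28 counts. miR-1298-5p matched miR-12187-3p over them, whose level was not analysed here.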

How the data were processed

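The 2 deposited files hold raw counts of reads per microRNA gene, 1 file per library, not normalized by the authors. The build is mm10 and the annotation GENCODE M21, per the notes deposited beside the count files. The aligner is not given in the sources used here. At the top of each file 4 lines name no gene and hold unmapped, multimapping, no-feature and ambiguous reads. They entered neither library sizes nor tests, and own-strand counts were 35.3% and 34.6% of all reads. The 3 columns were read from the values as either strand, strand of the gene and opposite strand.

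CPM uses the own-strand total. TMM factors (0.994 and 1.01) came from edgeR 4.0.16 in R 4.3.3, the exact conditional binomial test and the exact intervals (95%) from scipy 1.17.1, and alternative size factors from DESeq2 1.42.0. The test needs 10 or more counts in total, and was tested on simulated data. With 1 group there is no contrast for a quasi-likelihood test. Alternatives changed the scaling, count minimum, strand, pseudocount (0.1 CPM) and built-in coefficient of variation (0.1, 0.3), and the coefficient estimated by edgeR was added later.

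The members and gene lists were chosen with earlier results of these data known. Named genes are the members, the 3 highest of each list, the 2 nearest in level to each member with 10 or more counts in both libraries, and seed relatives. Counts per gene do not separate mature arms.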

Additional observations from a re-analysis of the deposited data

How the results depend on the processing

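When the library test allowed for a coefficient of variation of 0.1, it called 152 genes, 98 of them higher in replicate 2 and 54 lower, in place of 281 (164 and 117). With 0.3 there were 14 (13 and 1), and with the 0.425 estimated by edgeR 3 (2 and 1), of 22 with an unadjusted p below 0.05. The log2 ratios themselves do not change with this coefficient. That of Mir1298 (2.49) passed at 0.3 and not at 0.425, and those of Mir1264 (0.84) and Mir448 (0.81) passed at 0.1 and at neither of the larger values. Under other scalings, minimums, strand and pseudocount these 3 stayed past the threshold, at 2.36 to 2.55, 0.71 to 0.89 and 0.68 to 0.86. Mir764 and Mir1912 passed under none of their 8 alternatives, and a minimum of 100 counts leaves both out. That minimum also gave 122 higher and 130 lower genes, so that 48.4% of the calls were higher, against 58.4%.

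With all reads as denominator the mean levels were 2.46 for Mir764, 0.390 for Mir1912, 10.03 for Mir1264, 61.99 for Mir1298 and 6.28 for Mir448 per 1000000 reads, lower because the denominator is larger. With either-strand totals Mir764 stood at 7.66 CPM. From 1 library alone, the levels were 6.82 to 7.27 CPM for Mir764, 0.908 to 1.33 for Mir1912, 20.2 to 37.3 for Mir1264, 52.7 to 304 for Mir1298 and 12.7 to 23.3 for Mir448, and Mir1298 exceeded Mir1264 by 2.61 to 8.15 times, Mir1264 exceeded Mir448 by 1.59 to 1.60 times, and Mir448 exceeded Mir764 by 1.75 to 3.42 times. Per base of hairpin, Mir1264 exceeded Mir448 by 2.08 times. With a minimum of 100 counts in both libraries 1 member, Mir1298, was detected.

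Genes higher in replicate 2 numbered 4 in the choroid plexus list and 1 in the Clcn5 cluster with a minimum of 100 counts. In the oligodendrocyte list there were 0, and in the vessel wall list 1, when DESeq2 size factors, either-strand counts or a minimum of 100 counts were used. Leaving out genes that share 20 bases with another hairpin, a choice made after the data were seen, gave 1 in the neuronal list in place of 7, 4 among the introns of neuronal hosts in place of 9, and 0 in the oligodendrocyte list. The choroid plexus, vessel wall and Clcn5 counts did not change, since no tested gene of theirs shares 20 bases.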
